A study of Mus musculus with 14 samples.

Results

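The genes of the mouse major histocompatibility complex (MHC) and of antigen presentation were examined in bone marrow. They were chosen by name: every gene of the deposited count matrix whose symbol starts with H2-, the name of the mouse MHC, together with Cd74, Ciita, B2m, Tap1, Tap2, Tapbp, Nlrc5, Psmb8 and Psmb9. This gave 39 genes of the 23441 in the matrix, 30 of them H2- symbols and 9 other genes. By symbol, 26 genes belong to class I and 12 to class II, and H2-Ke6, which lies in the region but encodes no MHC molecule, belongs to neither. Another 15 H2- symbols are listed in the files of the individual samples but not in the matrix, and none of them had more than 7 counts in any sample.

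RNA sequencing was performed on bone marrow plugs flushed from the distal tibia of male mice on a mixed C57BL6/SJL background, 24 weeks old, and each sample pooled 2 mice. The mice were controls (BMAd-Pnpla2+/+) or lacked Pnpla2, which encodes the lipase ATGL, in bone marrow adipocytes (BMAd-Pnpla2-/-), and were fed ad libitum (AL) or kept under 30% caloric restriction (CR) for 6 weeks. There were 4 samples of BMAd-Pnpla2+/+ AL, 4 of BMAd-Pnpla2+/+ CR, 3 of BMAd-Pnpla2-/- AL and 3 of BMAd-Pnpla2-/- CR. According to the study's methods, controls and knockouts alike carried Osterix-FLPo and an FLPo-activated Adipoq-Cre (FAC), and differed in whether Pnpla2 was floxed. Cre is therefore restricted to cells that have expressed both Osterix and Adipoq, the marrow adipocytes and, as the study saw with a reporter, a few cells it described as stromal or dendritic, recombination is not complete, and the Cre cassette itself lowers adiponectin. The comparisons ask how CR changed the MHC genes in each genotype, and whether the loss of adipocyte lipolysis altered them.

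MHC class I molecules sit on nearly all nucleated cells and display peptides cut from the cell's own proteins to CD8 T cells. The peptides come from the proteasome, whose catalytic subunits can be replaced by Psmb8, Psmb9 and Psmb10 to form the immunoproteasome, and enter the endoplasmic reticulum through the transporter made of Tap1 and Tap2, where tapasin (Tapbp) helps load them. Class II molecules are found on B cells, dendritic cells and macrophages and display peptides of engulfed proteins to CD4 T cells, with the invariant chain Cd74 guarding the groove until H2-DM exchanges it for peptide. Nlrc5 and Ciita are the transactivators of class I and class II genes, and interferon gamma raises both sets.

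The promoters of a few of these genes are shown first, since class I and class II genes share some promoter boxes and not others. All are the 250 bases before the RefSeq gene start on GRCm38.p6 (mm10), read 5′ to 3′ on the gene's strand. Of the 39 genes, 29 had a promoter entry that was searched. The promoter of Cd74 was not searched. Capitals mark any match on either strand to AANNGAAA (interferon regulatory factor core), TTCNNNGAA (STAT site), CCAAT (Y box), TGACG (X2 box core) or GGGNNTTCC (kappa B site), which overlap no other motif of the 5 in the sequences printed except where TGACG meets its own reverse complement in H2-Aa. H2-K1 is shown as a classical class I chain, H2-T-ps as a gene of the T region that fell with CR in knockouts, and H2-Aa and H2-Eb1 as class II chains. Their windows lie at chr17:34000348-34000597 (minus strand), chr17:36111677-36111926 (minus), chr17:34287824-34288073 (minus) and chr17:34305617-34305866 (plus), and hold no exon of a coding gene.
H2-K1: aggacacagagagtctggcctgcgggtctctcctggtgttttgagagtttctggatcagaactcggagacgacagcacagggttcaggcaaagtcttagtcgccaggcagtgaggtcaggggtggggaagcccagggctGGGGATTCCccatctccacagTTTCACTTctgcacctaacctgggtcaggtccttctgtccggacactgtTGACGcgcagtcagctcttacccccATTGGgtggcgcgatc
H2-T-ps: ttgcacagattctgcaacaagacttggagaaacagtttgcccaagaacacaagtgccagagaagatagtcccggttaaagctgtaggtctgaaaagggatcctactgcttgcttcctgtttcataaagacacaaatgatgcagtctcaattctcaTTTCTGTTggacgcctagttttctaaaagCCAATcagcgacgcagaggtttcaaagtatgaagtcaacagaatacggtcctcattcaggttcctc
H2-Aa: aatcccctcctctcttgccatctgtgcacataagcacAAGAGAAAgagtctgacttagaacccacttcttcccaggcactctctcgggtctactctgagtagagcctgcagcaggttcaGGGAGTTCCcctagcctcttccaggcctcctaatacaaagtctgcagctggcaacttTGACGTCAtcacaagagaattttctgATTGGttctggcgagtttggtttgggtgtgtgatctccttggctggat
H2-Eb1: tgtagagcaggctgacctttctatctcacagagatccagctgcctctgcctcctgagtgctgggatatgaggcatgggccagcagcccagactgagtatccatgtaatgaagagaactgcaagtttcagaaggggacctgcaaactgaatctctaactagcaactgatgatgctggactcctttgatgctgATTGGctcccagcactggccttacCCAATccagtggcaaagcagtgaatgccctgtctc

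In H2-K1 a kappa B site, an interferon regulatory factor core, an X2 core and a Y box follow one another within the window, whereas H2-Eb1 matches only the Y box pattern. The search takes only the letters given, so a box with other letters is not marked. For Psmb8, Tap1 and H2-T23, whose windows overlap exons of other transcripts, only the stretch of 30 bases around a motif is shown, at chr17:34198087-34198116 (plus), chr17:34187457-34187486 (plus) and chr17:36032764-36032793 (minus).
Psmb8, STAT site: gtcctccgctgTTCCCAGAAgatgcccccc
Tap1, X2 box core: gcccagagacaggTGACGacagagggtcct
H2-T23, interferon regulatory factor core: ctcaattctcaTTTCTGTTggacgcctagt

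The Tap1 stretch lies in the RefSeq promoter windows of both Tap1 and Psmb9, which are transcribed away from each other, and inside the longer gene bounds that GENCODE gives Psmb9. Of the 3 H2-T23 stretches with a motif, 2 occur unchanged in the H2-T-ps window. An interferon regulatory factor core was found in 14 of the 20 class I genes and 2 of the 8 class II genes searched, against 21.3% of the 32851 windows of all genes. A Y box was found in 17 and 7 of these members, against 33.8%. Of a member with several windows only the first was taken, while the 32851 windows keep every window of a gene. For H2-DMa the first window held none of the motifs, and the second held an interferon regulatory factor core and a Y box. An X2 core was found in 10 class I and 1 class II genes, against 17.8% of all windows, a kappa B site in 6 and 2, against 4.98%, and a STAT site in 3 and 1, against 7.02%. The windows of Tap1 and Psmb9 share bases and class I genes are close copies, so the members counted are not independent sequences. A match describes the letters of the window and does not show that a factor binds there. A window without a match may still hold a box that differs from the pattern, so the counts do not show which promoters lack a box.

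The samples held between 18898324 and 21665553 counts on genes, and read pairs placed at more than 1 position, between 5.78% and 11.3% of pairs per sample, are in no gene's count. Class I H2 genes are close copies of each other and the reads were aligned to the C57BL/6J genome, while the mice were of mixed background, so the counts of H2 genes are uncertain between copies, and the part of the haplotype was not tested. The 3 BMAd-Pnpla2-/- CR libraries stood apart, since 50.2 ± 0.223% of their stranded gene reads were on the first strand, against 4.42 ± 0.122%, 4.46 ± 0.125% and 4.51 ± 0.0982% in the other groups. Counts without regard to strand were therefore used for all samples. The strand difference and the group cannot be told apart. Pnpla2 read 301, 174, 199 and 189.5 CPM (counts scaled to a common library total) in AL controls, 804, 991, 1015 and 502 in CR controls, 135, 170.1 and 131 in AL knockouts and 177, 219 and 267 in CR knockouts, so that no knockout sample reached a control sample on the same diet. Under CR the difference passed the test of the whole table (log2 fold change -1.90 ± 0.26 SE, adjusted p = 0.0386, edgeR). The plug is a mixed tissue: the summed level of 7 adipocyte markers ran from 278 to 4715 CPM over the samples and that of 7 neutrophil markers from 12263 to 32789.9 CPM. In such bulk RNA, fewer cells of a type and less RNA per cell cannot be told apart.

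Levels were compared between genes only per length, as CPM divided by the length of a gene's merged exons in kilobases (RPKM), over all 14 samples. B2m, the light chain shared by all class I molecules, was highest at 1094 ± 211 RPKM (SD), followed by H2-D1 at 586 ± 113 and H2-K1 at 277 ± 57.2, the classical heavy chains, whose ranges did not overlap. The next class I genes were H2-Q6 at 65.3 ± 18.2, H2-T23 at 55.1 ± 11.4, H2-Q4 at 51.3 ± 11.8 and Tapbp at 46.5 ± 5.04 RPKM, whose ranges over the samples overlapped. Tap1, Tap2, Psmb8 and Psmb9 had 25.3 ± 5.83, 19.2 ± 2.45, 15.6 ± 4.45 and 13.9 ± 3.92 RPKM, and Nlrc5 had 7.47 ± 1.46. In class II, Cd74 led with 669.8 ± 182 RPKM, and the chains H2-Ab1, H2-Eb1 and H2-Aa followed at 141 ± 30.4, 137 ± 31.8 and 116 ± 24.1, which were not apart by more than their SD. Peptide exchange genes were lower, from 34.4 ± 5.22 for H2-DMb1 to 10.6 ± 3.47 for H2-Oa, and Ciita stood at 6.45 ± 1.78 RPKM. H2-Eb2 had 2.71 ± 0.830 RPKM. The levels of Psmb8, Tap2, H2-Q4, H2-Oa and Tapbp are understated, because reads where another gene overlaps them are counted for neither: without strand they kept 51.0%, 55.7%, 63.3%, 65.0% and 73.4% of their reverse-strand counts.

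After a filter on low counts, 24 of the 26 class I genes and 11 of the 12 class II genes were tested, together with all other genes, 17671 in total. The genes H2-M5, H2-M11, H2-Ea-ps and H2-Ke6 did not pass the filter, and none of them had more than 10 counts in a sample. H2-Q2 passed with at most 19 counts in a sample. A gene is called here when edgeR's quasi-likelihood test gave it an adjusted p under 0.05 over the whole table. Fold changes are log2 of CR over AL, with their standard error (SE), and CPM values are listed from replicate 1 onward. Whether the samples of compared groups overlapped is described for single genes only. The share of all genes with groups apart is not given. With CR in knockouts, 5145 of the 17671 genes had an unadjusted p under 0.05.

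In BMAd-Pnpla2+/+ mice, CR lowered 4 class I genes, the immunoproteasome subunits Psmb8 and Psmb9 and the T region genes H2-T23 and H2-T24, and raised H2-M9, while the classical chains and their light chain did not pass the test. The 4 lower genes were 16.7% of the 24 tested, against 10.9% of all genes called lower in this comparison, and the H2-M9 rise was 4.17% of them, against 15.1% of all genes called higher. The median log2 fold change was -0.17 for the 24 class I genes and 0.00 for all genes, and 20 of the 24 had a negative value, against 49.8% of all genes. In BMAd-Pnpla2-/- mice, CR lowered 5 class I genes, Psmb8, Psmb9, Tap1, H2-T23 and the pseudogene H2-T-ps, and raised none. They were 20.8% of the 24 tested, against 5.57% of all genes called lower and 6.04% called higher. The median was -0.45 for class I and 0.05 for all genes, and 23 of the 24 were negative, against 45.5%. DESeq2 called 5 class I genes in the controls and 7 in the knockouts, against 28.7% and 17.2% of all genes with an adjusted p. In knockouts the balance of all calls moved with the scaling, from 1067 higher and 985 lower to 913 and 1267 with RLE size factors and to 1396 and 687 with total counts alone, and the class I median remained negative, at -0.48 and -0.37.

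**Figure D1:**
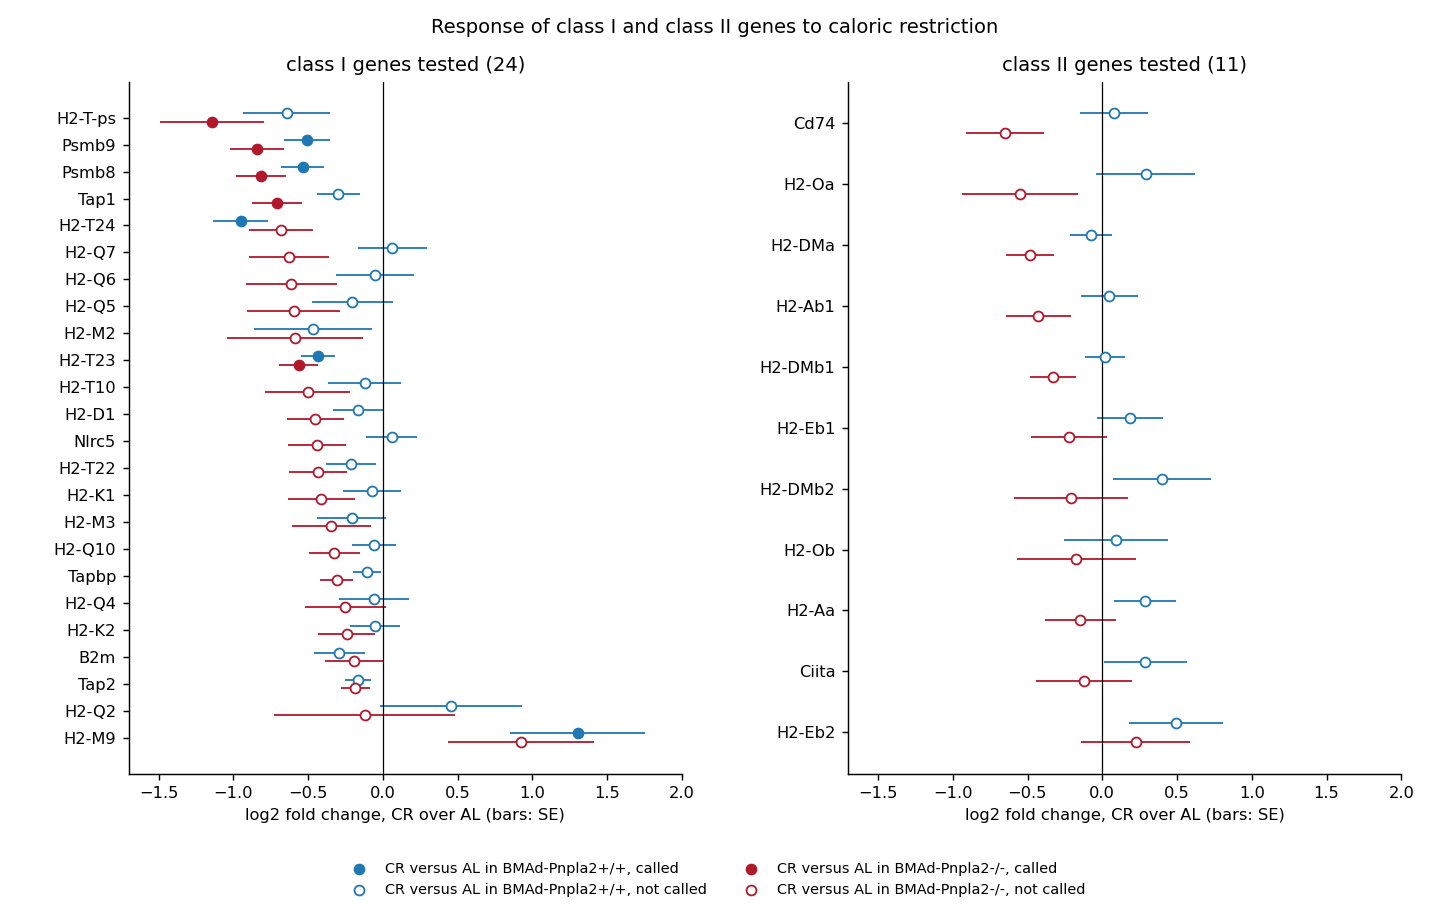
Log2 fold change of CR over AL for the 24 class I genes (left) and the 11 class II genes (right) tested, in BMAd-Pnpla2+/+ (blue) and BMAd-Pnpla2-/- mice (red). Points are estimates from edgeR, bars their SE, and filled points were called. Most class I points lie left of 0 in both genotypes, while class II points lie right of 0 in controls except H2-DMa and left of 0 in knockouts except H2-Eb2, and no class II point is filled.

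Psmb8 encodes the immunoproteasome subunit LMP7 (chr17:34197721-34201454, plus strand, GENCODE M21). Its level in controls was 85.5, 48.1, 67.4 and 62.4 CPM with AL and 51.7, 43.6, 46.4 and 39.9 CPM with CR. Replicate 2 fed AL lay inside the range of the CR samples and the other AL samples lay above it. The log2 fold change was -0.54 ± 0.14 SE, adjusted p = 0.018, a fall to 0.690 times the AL level. In knockouts Psmb8 read 63.8, 66.3 and 56.0 CPM with AL and 35.3, 37.8 and 32.5 with CR. These groups did not overlap, and the log2 fold change was -0.82 ± 0.17 SE, adjusted p = 0.0124, a fall to 0.567 times the AL level.

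Psmb9, the partner subunit LMP2 (chr17:34181987-34187764, minus strand), was also lower with CR in both genotypes. It read 70.2, 38.9, 69.4 and 62.2 CPM in controls fed AL and 45.8, 40.8, 44.1 and 38.3 CPM in controls under CR, with replicate 2 fed AL again among the CR values (-0.51 ± 0.15 SE, adjusted p = 0.0289). In the knockouts 73.3, 61.3 and 59.7 CPM with AL stood against 38.9, 36.4 and 33.1 CPM with CR, with no overlap (-0.84 ± 0.18 SE, adjusted p = 0.0143). Counted on the reverse strand alone, which the kit of the other 11 libraries marks, Psmb8 in controls was no longer called (log2 fold change -0.42, adjusted p = 0.0611), while Psmb9 was (-0.52, adjusted p = 0.040). In the stranded libraries 11.2% of the reads on Psmb9 were on the first strand.

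The peptide transporter subunit Tap1 (chr17:34187553-34197225, plus strand) had 188, 105, 165 and 160.3 CPM in controls fed AL and 127, 119, 141 and 116 CPM in controls under CR. Replicate 2 fed AL was lower than all 4 CR samples and the other 3 were higher, and the change was not called (-0.30 ± 0.14 SE, adjusted p = 0.139). Knockouts had 191, 168 and 148 CPM with AL and 99.9, 105 and 105 CPM with CR, and here the fall was called (-0.71 ± 0.17 SE, adjusted p = 0.0201). The difference between the genotypes in this response did not pass the test (interaction log2 -0.41 ± 0.22 SE, adjusted p = 0.534). Tap2, the other subunit of the transporter, read 84.2, 70.6, 90.9 and 83.9 CPM with AL and 76.0, 76.9, 74.8 and 65.8 with CR in controls, and 71.8, 71.9 and 65.3 with AL and 60.9, 61.0 and 62.1 with CR in knockouts. The diets overlapped in controls and were narrowly apart in knockouts. Tap2 was called in neither genotype (-0.17, adjusted p = 0.157, and -0.18, adjusted p = 0.233).

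H2-T23 encodes Qa-1, a nonclassical class I molecule read by receptors of natural killer cells (chr17:36029773-36032855, minus strand). Controls had 208, 149.7, 203 and 182 CPM with AL and 147, 129, 139 and 135 CPM with CR. No CR sample reached the lowest AL sample, and the log2 fold change was -0.44 ± 0.11 SE, adjusted p = 0.0156. In knockouts 209, 191 and 159 CPM with AL stood against 117, 138 and 123 CPM with CR, again apart (-0.56 ± 0.13 SE, adjusted p = 0.0183).

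Of the class I genes called lower in controls, H2-T24, another class I gene of the T region (chr17:36005695-36020560, minus strand), had the most negative log2 fold change. It read 72.6, 85.4, 69.9 and 67.9 CPM with AL and 44.2, 25.1, 31.1 and 52.6 CPM with CR, without overlap (-0.95 ± 0.18 SE, adjusted p = 0.00471), a fall to 0.517 times the AL level. Knockout values were 80.9, 62.0 and 68.7 CPM with AL and 44.1, 45.3 and 42.6 CPM with CR, also without overlap, but the change just missed the threshold (-0.68 ± 0.21 SE, adjusted p = 0.0526). In AL controls H2-T24 was highest in replicate 2, the library in which 20 of the 24 class I genes were lowest. The pseudogene H2-T-ps had 4.49, 1.53, 2.21 and 2.99 CPM in controls with AL, 2.37, 1.32, 1.91 and 1.58 with CR, and in knockouts 3.15, 2.74 and 2.64 with AL and 1.16, 1.47 and 1.23 with CR. It was called in knockouts (-1.14 ± 0.35 SE, adjusted p = 0.0493) and not in controls (-0.64 ± 0.29 SE, adjusted p = 0.116), and rests on 22 to 93 counts a sample. H2-M9 rose in controls from 0.241, 0.369, 0.360 and 0.521 to 0.758, 0.684, 1.38 and 0.897 CPM (1.30 ± 0.45 SE, adjusted p = 0.0481), on 5 to 31 counts a sample, and its adjusted p stayed under the threshold in only 3 of the 14 fits that left out a sample.

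**Figure D2:**
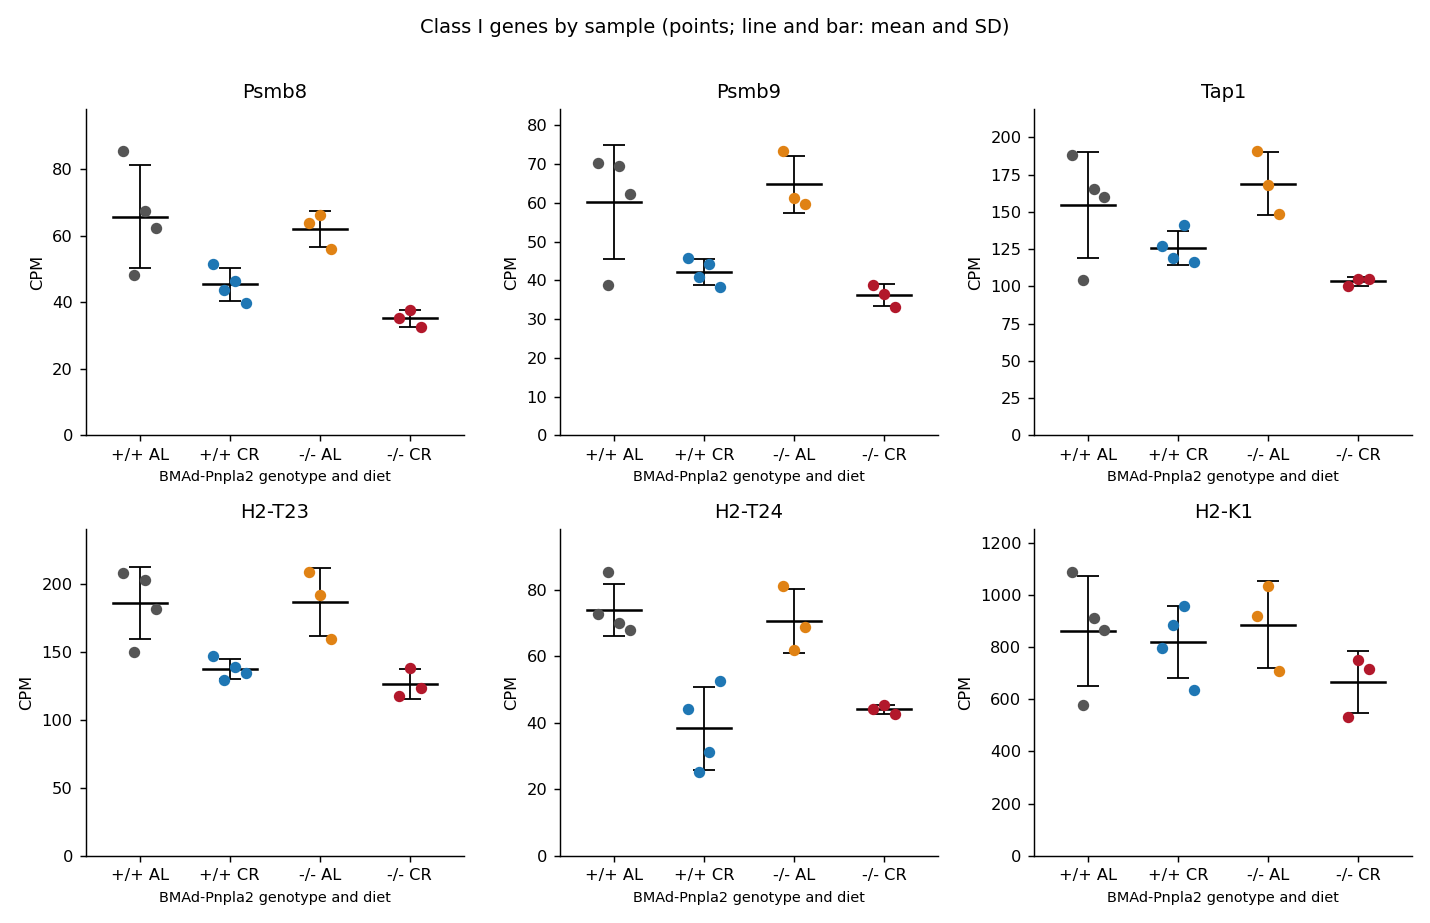
CPM of Psmb8, Psmb9, Tap1, H2-T23, H2-T24 and H2-K1 in each sample (points) by genotype and diet, with the group mean (line) and SD (bar). In the knockouts CR samples lie below AL samples for each gene shown but H2-K1. In controls replicate 2 fed AL falls among or below the CR samples for Psmb8, Psmb9, Tap1 and H2-K1. The share of all genes with groups apart is not given.

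The classical heavy chain H2-K1 had 1090.4, 579.8, 913 and 866 CPM in controls with AL, 798, 885, 960.5 and 636 with CR, and in knockouts 919, 1036 and 707 with AL and 532, 749.6 and 718 with CR. The diets overlapped in both genotypes, with log2 fold changes of -0.07 ± 0.19 SE, adjusted p = 0.803 in controls and -0.41 ± 0.22 SE, adjusted p = 0.24 in knockouts. H2-D1, the other classical chain, read 1939, 1249, 1859 and 1655 CPM with AL and 1554, 1664, 1602 and 1139 with CR in controls, and 1620.2, 1901 and 1378 with AL and 1007, 1319.9 and 1255 with CR in knockouts (-0.17 ± 0.17 SE, adjusted p = 0.466 and -0.45 ± 0.19 SE, adjusted p = 0.138). Here the control diets overlapped and the knockout diets did not. For the light chain B2m the values were 1262, 767, 904 and 957 CPM with AL and 788, 679, 1029 and 680.0 with CR in controls, and 1091, 1199 and 967 with AL and 822, 1084 and 943 with CR in knockouts (-0.29 ± 0.17 SE, adjusted p = 0.21 and -0.19 ± 0.20 SE, adjusted p = 0.55). B2m was therefore called in neither genotype, and its diets overlapped in both.

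The transactivator Nlrc5 read 88.9, 50.6, 47.4 and 67.9 CPM with AL and 60.6, 67.5, 77.8 and 59.3 with CR in controls (0.06 ± 0.17 SE, adjusted p = 0.818), and 74.3, 74.9 and 63.1 with AL and 50.7, 56.7 and 49.0 with CR in knockouts (-0.44 ± 0.20 SE, adjusted p = 0.151). The knockout groups did not overlap but the change was not called. Tapasin, Tapbp, had a log2 fold change of -0.11 ± 0.09 SE, adjusted p = 0.401 in controls and -0.31 ± 0.11 SE, adjusted p = 0.0758 in knockouts. None of the 6 Q region genes was called in either genotype: their log2 fold changes ran from -0.20 to 0.45 in controls and from -0.63 to -0.12 in knockouts, with an unadjusted p under 0.05 for 0 genes in controls and 1 in knockouts (H2-Q7, which encodes a Qa-2 molecule, -0.63 ± 0.27 SE, adjusted p = 0.139). H2-Q4, H2-Q5, H2-Q6 and H2-Q10 had -0.25, -0.60, -0.61 and -0.32 in knockouts. The remaining class I genes averaging 50 counts or more, H2-K2, H2-T22, H2-T10, H2-M3 and H2-M2, were not called, with log2 fold changes of -0.05, -0.21, -0.12, -0.21 and -0.47 in controls and -0.24, -0.43, -0.50, -0.34 and -0.59 in knockouts. GENCODE lists H2-K2 as a pseudogene and H2-Q5 and H2-T10 as polymorphic pseudogenes, so the class I genes counted here are not all coding genes.

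Class II genes did not pass the test in either genotype. In controls 0 of the 11 tested were called by edgeR, 0 had an unadjusted p under 0.05 and DESeq2 called 0, while edgeR called 15.1% of all genes higher and 10.9% lower. Their median log2 fold change was 0.18, and 1 of the 11 was negative, against 0.00 and 49.8% for all genes. In knockouts edgeR called 0 of 11, while 2 genes, Cd74 and H2-DMa, had an unadjusted p under 0.05, and DESeq2 called H2-DMa. The shares of all genes called by edgeR were 6.04% higher and 5.57% lower. The class II median was -0.22, and 10 of the 11 were negative, H2-Eb2 being the exception, against 0.05 and 45.5% for all genes.

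The invariant chain Cd74 read 1757, 781, 954 and 1129 CPM in controls with AL and 984, 1541, 1229.7 and 1125 with CR. These groups overlapped, with both the highest and the lowest value among the AL samples (0.08 ± 0.23 SE, adjusted p = 0.816). In knockouts it read 1290.1, 1428 and 1096 CPM with AL and 631, 862 and 934 with CR, without overlap, and was not called (-0.65 ± 0.26 SE, adjusted p = 0.116).

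The class II chain H2-Aa had 535, 275, 331 and 436 CPM in controls with AL and 361, 564, 534 and 466 with CR (0.29 ± 0.21 SE, adjusted p = 0.314), and 452, 547 and 401 with AL and 321, 457 and 487 with CR in knockouts (-0.15 ± 0.24 SE, adjusted p = 0.733). Both pairs of groups overlapped. For its partner H2-Ab1 the values were 503, 281, 323 and 377 and 309.9, 495, 391 and 338 CPM in controls (0.05 ± 0.19 SE, adjusted p = 0.869), and 397, 439.8 and 332 and 232, 317 and 321 in knockouts (-0.43 ± 0.22 SE, adjusted p = 0.216). The knockout groups were apart by a narrow gap and the control groups overlapped. H2-Eb1 read 364, 170.1, 232 and 275 and 250.2, 396, 299.9 and 237 CPM in controls (0.18 ± 0.22 SE, adjusted p = 0.555), and 276, 315 and 225 and 188, 254 and 257 in knockouts (-0.22 ± 0.25 SE, adjusted p = 0.602), and both pairs of groups overlapped. The gene H2-Eb2 had log2 fold changes of 0.49 ± 0.32 SE, adjusted p = 0.253 and 0.22 ± 0.36 SE, adjusted p = 0.729.

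H2-DMa, the alpha chain of the molecule that exchanges peptides on class II, had 92.1, 53.8, 66.0 and 79.7 CPM in controls with AL and 67.8, 75.6, 66.9 and 66.5 with CR (-0.08 ± 0.14 SE, adjusted p = 0.709). In knockouts it read 81.8, 89.0 and 70.5 with AL and 51.5, 61.2 and 59.6 with CR, without overlap, and just missed the threshold (-0.49 ± 0.16 SE, adjusted p = 0.0639). Its counts are uncertain, since 14.9% of the reads on it in stranded libraries were on the first strand. The beta chains H2-DMb1 and H2-DMb2 had 0.02 and 0.40 in controls and -0.33 and -0.21 in knockouts. H2-Oa and H2-Ob, which form an inhibitor of peptide exchange found mainly in B cells, had 0.29 and 0.09 in controls and -0.55 and -0.17 in knockouts. The transactivator Ciita read 90.0, 30.9, 45.9 and 65.8 CPM in controls with AL, 60.1, 88.8, 64.9 and 70.3 with CR, 59.3, 67.4 and 52.9 in knockouts with AL and 38.1, 52.6 and 74.2 with CR, and its diets overlapped in both genotypes (0.29 ± 0.28 SE, adjusted p = 0.46 and -0.12 ± 0.32 SE, adjusted p = 0.84).

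**Figure D3:**
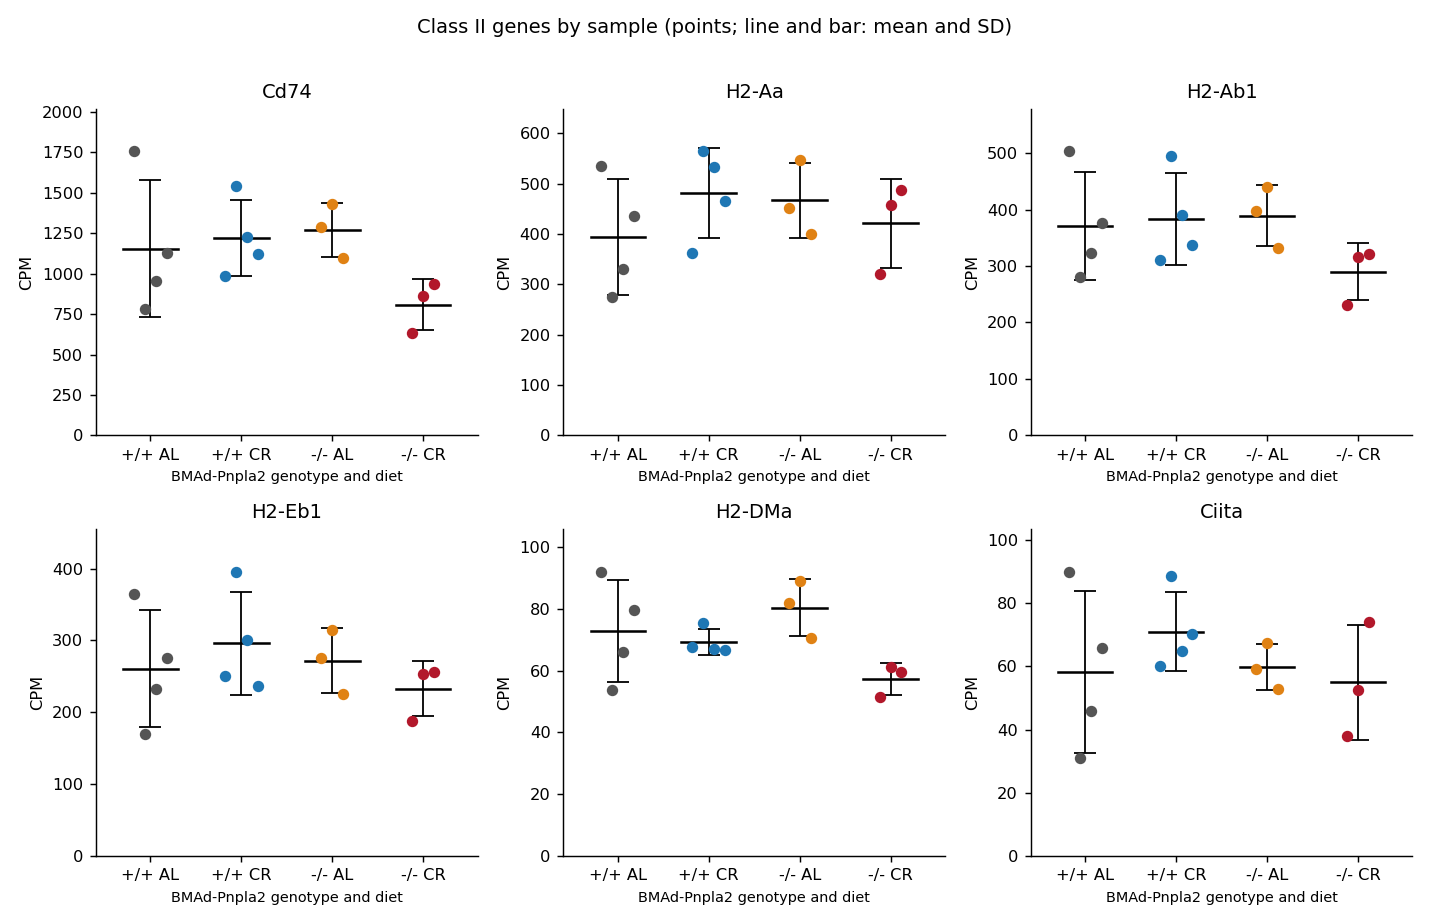
CPM of Cd74, H2-Aa, H2-Ab1, H2-Eb1, H2-DMa and Ciita in each sample (points) by genotype and diet, with the group mean (line) and SD (bar). The AL controls spread most, with replicate 1 at or near the top and replicate 2 at the bottom. The 3 CR knockouts lie below the AL knockouts for Cd74, H2-Ab1 and H2-DMa, and the share of all genes with groups apart is not given.

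Libraries moved the class II values together. In AL controls, replicate 2 was the lowest of the 4 samples for all 11 class II genes tested and replicate 1 the highest for 10 of them, and in CR knockouts replicate 1 was the lowest of the 3 for all 11. Without replicate 2 of the AL controls, the class II median with CR in controls was 0.02, with 5 of 11 negative. Without replicate 1 of the CR knockouts, the class II median in knockouts was -0.09, with 6 of 11 negative. Other libraries moved it as well: in controls it was 0.39 without replicate 1, 0.09 without replicate 3 and 0.33 without replicate 4 fed AL and 0.28 without replicate 4 under CR, and in knockouts -0.38 without replicate 3 fed AL, -0.51 without replicate 3 under CR and -0.15 without replicate 2 fed AL. The class I median in controls was -0.31 without replicate 2 fed AL, -0.09 without replicate 1 fed AL and -0.10 without replicate 4 under CR, with 22, 16 and 17 of the 24 genes negative. In knockouts it ran from -0.59 to -0.38 over the fits that left out a sample. The calls of class I in knockouts rested on few libraries too: without replicate 3 of the CR knockouts 0 class I genes were called, without replicate 1 of the AL knockouts Psmb8 alone, and without replicate 1 or replicate 2 of the CR knockouts 3 genes each. Calls over all genes fell in the same fits, from 2052 to 243, 444, 1440 and 827, or 1.34%, 2.44%, 7.92% and 4.54% of the genes tested. In controls, leaving out replicate 1, 3 or 4 fed AL, or replicate 2 or 3 under CR, left 3 class I genes called, H2-T23, H2-T24 and Psmb8, with 12.7% to 23.8% of all genes called.

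Between the genotypes no class I or class II gene passed the test. With AL feeding edgeR called 0 of the 24 class I and 0 of the 11 class II genes, and 0% of all genes. An unadjusted p under 0.05 was reached by 1 class I gene, Tap2 (log2 -0.24 ± 0.09 SE, adjusted p = 0.9996), and by 0 class II genes, and DESeq2 called 0 in both classes and 0.0658% of all genes. The class I and class II medians were 0.04 and 0.09, with 8 of the 24 and 0 of the 11 genes negative, against -0.01 and 52.0% for all genes. These directions rested on single libraries: without replicate 2 of the AL controls the medians were -0.07 and -0.05, with 16 and 8 negative, and without replicate 2 of the AL knockouts 6 of the 11 class II genes were negative. Under CR edgeR again called 0 of 24 and 0 of 11, against 0.0113% of all genes, with an unadjusted p under 0.05 for Tap2 and Psmb8 in class I and for Cd74 in class II. These had log2 values of -0.26 ± 0.09, -0.37 ± 0.16 and -0.59 ± 0.25 SE, and adjusted p-values of 0.13, 0.185 and 0.176, and DESeq2 called Tap2 alone of the members and 11.9% of all genes. The count over all genes was unstable: the 2 genes called by edgeR became 2112, or 12.0% of those tested, without replicate 4 of the CR controls, a fit that called Tap2 among the members. The medians under CR were -0.24 for class I, with 21 of 24 negative, and -0.35 for class II, with 10 of 11 negative, against -0.01 and 51.3% negative for all genes. Without replicate 1 of the CR knockouts they were -0.13 and -0.20.

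The interaction of genotype and diet, which asks whether the response to CR differed between the genotypes, was called by edgeR for 0 of 24 class I and 0 of 11 class II genes, and 0% of all genes. No member had an unadjusted p under 0.05, and DESeq2 called 0, and 0.245% of all genes. The interaction value was negative for 22 of the 24 class I genes and all 11 class II genes, with medians of -0.28 and -0.41, against 0.00 and 49.9% negative for all genes. Without replicate 2 of the AL controls the medians were -0.16 and -0.29, with 10 of the 11 class II genes negative. Without replicate 1 of the CR knockouts they were -0.19 and -0.29. The class II median was -0.62 without replicate 1 of the AL controls. For Cd74 the interaction was -0.73 ± 0.34 SE (adjusted p = 0.485). The 4 group comparisons share samples and are not independent of each other.

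The other genes of the class I pathway were set beside the members. Of 8 such genes, 4 fell with CR in controls and 5 in knockouts, and 0 rose. Of all genes, 10.9% were called lower in controls and 5.57% in knockouts, and 15.1% and 6.04% higher. The same shares hold for the lists that follow. Single calls in such short lists are not read as results about the list. Psme1 and Psme2, the 2 chains of the PA28 activator of the proteasome, had -0.30 ± 0.10 SE, adjusted p = 0.0362 and -0.36 ± 0.10 SE, adjusted p = 0.0231 in controls, and -0.51 ± 0.11 SE, adjusted p = 0.016 and -0.65 ± 0.12 SE, adjusted p = 0.00951 in knockouts. Psmb10, the remaining immunoproteasome subunit, had -0.40 ± 0.13 SE, adjusted p = 0.0401 in controls and -0.65 ± 0.15 SE, adjusted p = 0.0199 in knockouts. The chaperone calreticulin (Calr) was the last of those that fell in both, and Tapbpl, a relative of tapasin, fell in knockouts. The list's median was -0.30 in controls and -0.50 in knockouts.

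Psmb8, Psmb9 and Psmb10 replace Psmb5, Psmb6 and Psmb7 in the proteasome. The replaced subunits and Psme3, the chain of another proteasome activator, were looked up after the members' values were known. Of these 4 genes 1, Psmb6, was called lower in controls by edgeR (-0.27 ± 0.08 SE, adjusted p = 0.0292), where all 4 were negative with a median of -0.31, 3 had an unadjusted p under 0.05 and DESeq2 called 2. In knockouts edgeR called 0, 1 had an unadjusted p under 0.05 and DESeq2 called 1, with 3 of the 4 negative and a median of -0.11. The ratio of Psmb8 to Psmb5 counts was 2.02 ± 0.195 in AL controls, 1.80 ± 0.102 in CR controls, 2.34 ± 0.216 in AL knockouts and 1.53 ± 0.0632 in CR knockouts (mean ± SD), values that also depend on the length of each gene. The ratio of Psmb9 to Psmb6 was 0.739 ± 0.162, 0.630 ± 0.0714, 0.811 ± 0.0630 and 0.554 ± 0.0321 in the same order, and that of Psmb10 to Psmb7 was 1.62 ± 0.558, 1.51 ± 0.311, 1.61 ± 0.145 and 1.002 ± 0.129. Each ratio was lowest on average in the CR knockouts. The ratios were not tested.

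Of 8 tested genes of interferon gamma signalling, Ifngr1, a chain of the receptor, rose in controls (0.38 ± 0.11 SE, adjusted p = 0.0248) and Irf1, a transcription factor of class I and immunoproteasome genes, fell in knockouts (-0.55 ± 0.13 SE, adjusted p = 0.0173). Irf1 in controls had -0.27 ± 0.11 SE, adjusted p = 0.0789. Of the 7 partners of Ciita on class II promoters, 3 fell in controls, Nfya (-0.57 ± 0.12 SE, adjusted p = 0.00622), Rfxap and Creb1, and 1 in knockouts, Nfyc (-0.55 ± 0.13 SE, adjusted p = 0.0175), and 0 rose. Among 7 genes of class II processing, Ifi30, a thiol reductase of endosomes, fell in both genotypes (-0.60 ± 0.16 SE, adjusted p = 0.0181 and -0.63 ± 0.19 SE, adjusted p = 0.0438). Ctsl, a lysosomal protease, rose in controls (0.84 ± 0.19 SE, adjusted p = 0.00971), Ctsd, another such protease, fell in knockouts (-0.51 ± 0.15 SE, adjusted p = 0.0457), and March1, a ubiquitin ligase that removes class II from the surface, rose in knockouts (0.65 ± 0.13 SE, adjusted p = 0.0109). None of 6 genes of costimulation and checkpoint ligands was called in either genotype by edgeR or DESeq2, and 1 in controls and 0 in knockouts had an unadjusted p under 0.05. Of all genes edgeR called 26% in controls and 11.6% in knockouts, in either direction. Of 5 class I-like genes outside the H2 locus, Cd1d1, which presents lipids, rose in controls (1.27 ± 0.24 SE, adjusted p = 0.00441), and edgeR called 0 in knockouts, where DESeq2 called 1 and 1 had an unadjusted p under 0.05.

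Markers of the cells that carry class II were read in the same way. Of all genes, 15.1% were called higher and 10.9% lower in controls, and 6.04% and 5.57% in knockouts. None of the 8 mature B cell markers was called in controls or knockouts by edgeR, with an unadjusted p under 0.05 for 0 and 3 of them and 0 and 1 called by DESeq2, and their medians were 0.14 and -0.66. Their summed CPM was 1229.5, 291, 819 and 1378 in AL controls, 834, 878, 751 and 996 in CR controls, 960.1, 1189 and 859 in AL knockouts and 349, 605 and 884 in CR knockouts. Replicate 2 of the AL controls and replicate 1 of the CR knockouts, the lowest libraries of their groups for class II, were also the lowest for mature B cell markers, and no marker of the list was at 0 in a group. The part of B cells in the class II values was not tested.

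Of the 7 markers of pro-B and pre-B cells, 6 fell with CR in both genotypes, among them Rag1 (-6.83 ± 0.61 SE, adjusted p = 8.97e-05 and -5.91 ± 0.67 SE, adjusted p = 0.0018), which starts the rearrangement of antigen receptors. Their sum was 133 to 405 CPM in AL controls and 56.7 to 80.6 in CR controls, 239 to 290.2 in AL knockouts and 57.3 to 66.9 in CR knockouts. The CR and AL ranges of this sum did not meet in either genotype. Those of the class II sum overlapped in both. In knockouts the class II overlap was narrow, with CR up to 2377 CPM and AL down to 2367 CPM. Class I genes are made by all these cells, and the part of the lower precursor markers in the class I values was not tested. Conventional dendritic cell markers moved both ways: of 8, 2 rose and 2 fell in controls, and 1 rose and 1 fell in knockouts, Flt3 rising (0.49 ± 0.11 SE, adjusted p = 0.00973 and 0.71 ± 0.13 SE, adjusted p = 0.00951) and Itgax falling (-0.51 ± 0.17 SE, adjusted p = 0.0372 and -0.68 ± 0.19 SE, adjusted p = 0.0368) in each. Of the 4 plasmacytoid dendritic cell markers, 2 fell in controls and 0 were called in knockouts by edgeR, where 2 had an unadjusted p under 0.05 and DESeq2 called 2. The macrophage markers had 4 of 9 higher in controls and 1 of 9, Cd163, in knockouts (1.38 ± 0.32 SE, adjusted p = 0.0106 and 1.82 ± 0.37 SE, adjusted p = 0.0133), and 0 lower. Of 5 monocyte markers 2 fell in controls and 1 in knockouts.

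**Figure D4:**
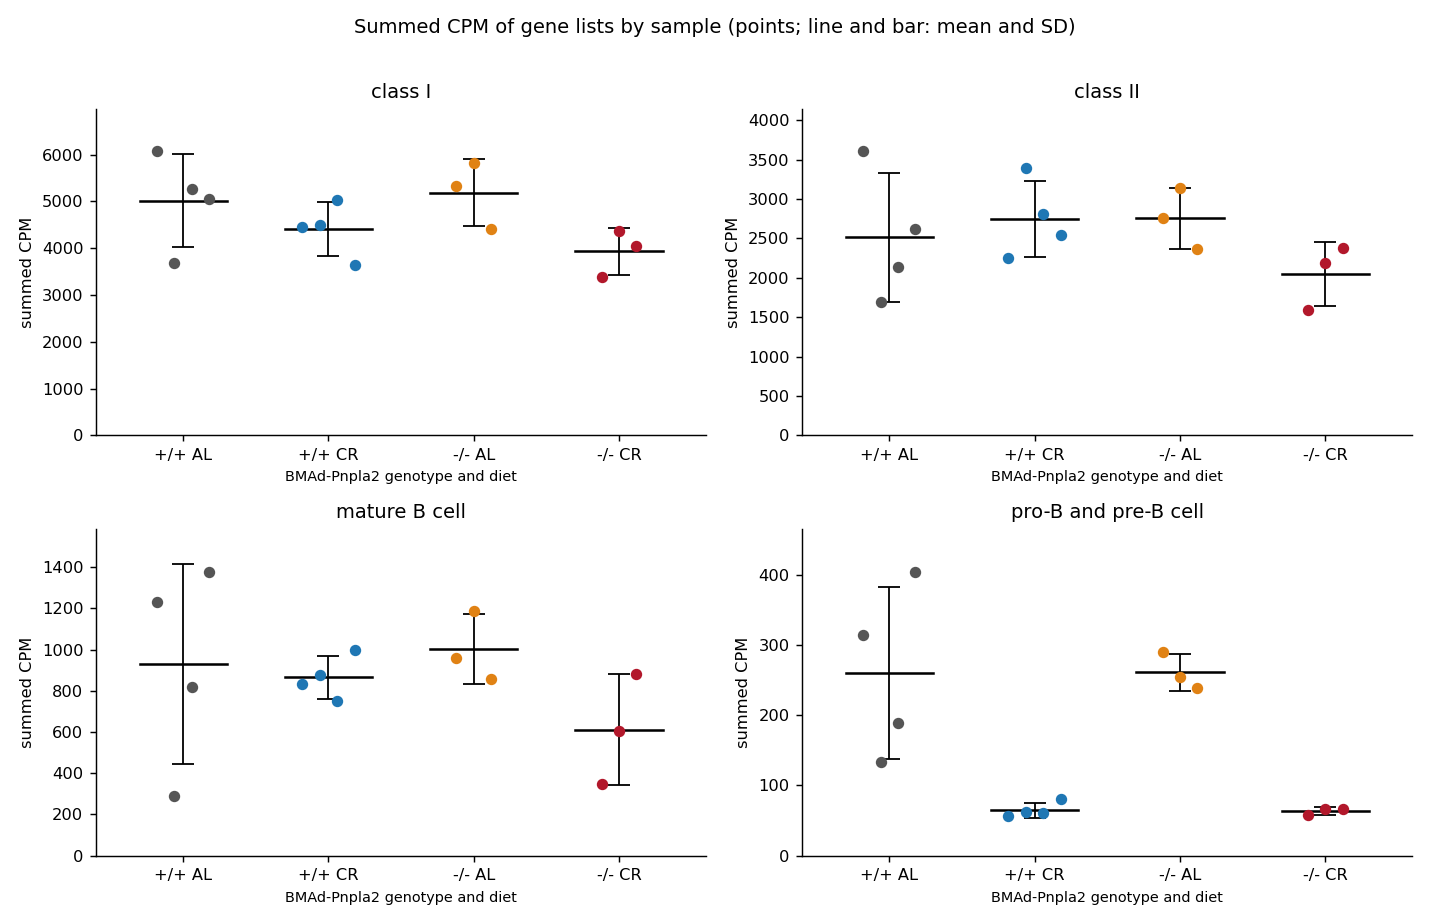
Summed CPM of the 26 class I genes, the 12 class II genes, 8 mature B cell markers and 7 pro-B and pre-B cell markers in each sample (points) by genotype and diet, with the group mean (line) and SD (bar). Precursor markers separate the diets in both genotypes, while class I, class II and mature B cell sums of the diets overlap in controls.

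Markers of other cell types moved as well. All 7 adipocyte markers rose with CR in both genotypes, with medians of 2.03 and 2.21. Neutrophil markers fell in controls, 5 of 7, with a median of -0.85, and edgeR called 0 in knockouts, where 2 had an unadjusted p under 0.05 and DESeq2 called 2 (median -0.42). In controls 3 of 7 T and NK cell markers rose and in knockouts 2, Cd3e and Cd8a in both. Of 5 endothelial markers 4 rose in controls and edgeR called 0 in knockouts, with an unadjusted p under 0.05 for 1 and 0 by DESeq2. The 4 erythroid markers held 0 calls by edgeR, by DESeq2 and at an unadjusted p under 0.05. Skeletal muscle markers summed to 1.69, 20.4 and 75.1 CPM in the CR knockouts and to at most 8.86 CPM in the other samples. What part these cell types have in the MHC values was not tested.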

How the data were processed

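Per the labels and the study's methods, libraries were made with a stranded kit, sequenced as read pairs, checked with FastQC 0.11.9 and aligned by the authors with STAR to mm10. The authors deposited raw counts per gene for each of the 14 samples without strand and on each strand, and a matrix of raw counts of 23441 genes, which holds reverse-strand counts for 11 samples and unstranded counts for the 3 BMAd-Pnpla2-/- CR samples. The unstranded counts were analysed here, and the matrix was used to choose members and as an alternative. Genes were filtered with filterByExpr, scaled by TMM and tested with edgeR 4.0.16 (robust quasi-likelihood fit of 1 model of 4 groups, without the main-effects form of the study's DESeq2 model), with p-values adjusted by Benjamini and Hochberg over 17671 genes. Tests were two-sided. The SE is the log2 fold change over the square root of F. Replicates are separate pools of 2 mice. DESeq2 1.42.0, limma 3.58.1, R 4.3.3 and Python 3.11.15 were also used. Coordinates are from GENCODE M21 (GRCm38). Alternatives were RLE size factors, total counts, DESeq2, no low-count filter, the deposited matrix, reverse-strand counts of 11 samples, the compared groups alone, a replicate block and leaving out each sample.

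The members and gene lists were chosen with earlier results of these data known, and the proteasome counterparts after the members' values were seen. Named genes were a fixed set of 19 pathway genes and every other member called or averaging 50 counts or more. Of each list, values were given for at most 3 called genes a comparison or 2 defining genes. Some further called genes of a list were given by name only. On simulated counts of 17671 genes, the fit recovered 76% of genes changed by a log2 of 1 in the controls' diet comparison and 62% in that of the knockouts. In each simulated comparison 100 genes were changed by this size, far fewer than the data's calls. They were drawn from genes averaging 50 counts or more, so the shares do not cover low members such as H2-M9, H2-T-ps and H2-Q2. Total counts were 18898324 to 21665553 per sample.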

Additional observations from a re-analysis of the deposited data

Results flagged for a closer look

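In 70 groups of 4 samples checked, each a tested member in a group of controls, the gap of the most extreme sample passed Dixon's 95% critical value in 2, where chance flags about 1 in 20. H2-DMa in BMAd-Pnpla2+/+ CR replicate 2 stood at 75.57 CPM, with 67.8 CPM as the nearest of the other 3 samples and 66.5 CPM as the farthest, a gap of 0.86 of the range. H2-Q6 in BMAd-Pnpla2+/+ CR replicate 3 stood at 168.2 CPM, with 125 CPM and 116 CPM as the nearest and the farthest, a gap of 0.83. Neither gene was called in any of the 5 comparisons.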

How the results depend on the processing

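The number of class I genes called with CR in controls, 5, was 3 with the compared groups alone. There 16.4% of all genes were called, against 26% in the fit reported. The class I number was 1 with an absolute log2 fold change over 1 asked for, and 3 to 6 when a sample was left out. In knockouts the 5 class I calls became 8 with the deposited matrix, where 22.3% of all genes were called, 8 with the compared groups alone, where 16.1% were, against 11.6% in the fit reported, and 1 with the fold change threshold, and 0 to 7 when a sample was left out. The 0 class II calls in knockouts became 1 with RLE size factors, 1 with DESeq2 and 1 without the low-count filter (H2-DMa in each), 2 with the matrix (H2-DMa and H2-Oa), 2 with the groups alone (Cd74 and H2-DMa), and 0 to 1 on leaving out a sample. Between genotypes under CR, DESeq2 called 1 class I gene (Tap2) and 1558, or 11.9%, of all genes. The matrix called 4 class I genes (H2-Q4, Psmb8, Tap2 and Tapbp), 1 class II gene (H2-Oa) and 2451, or 14%, of all genes. Leaving out a sample gave 0 to 1 class I genes. In the interaction the matrix called 2 class I genes (Psmb8 and Tap2) and 678, or 3.87%, of all genes, where the fit reported called 0. By its construction the matrix counts 1 strand in 11 samples and both in the CR knockouts. The class I genes named here for the matrix each overlap a gene on the opposite strand. So do class I genes that it did not call in these comparisons, such as Tap1, Psmb9 and Nlrc5. The cause of the changes under the alternatives was not tested. No called value of a member reversed its direction, and of 3705 values of single members under the alternatives 41 lost a call, 38 gained one, 18 that were never called moved by more than their SE, and 3608 did none of these. Among values called in neither fit, 126 changed sign. With a replicate block, 5 class I genes were called in controls and 4 in knockouts, without H2-T-ps, and 0 in every other comparison and class. Same-numbered samples had a median correlation of deviations of 0.070, with 5 of 13 pairs over 0.1, so the numbers were not taken to pair the samples. Reverse-strand counts were not fitted with the CR knockouts. With 3 or 4 samples a group, the simulation recovered 76% and 62% of changes of a log2 of 1 in the diet comparisons of controls and knockouts. Smaller changes, and changes in genes with few counts, were not simulated.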
